A study of Homo sapiens with 12 samples.

Results

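GREM1, FST, BMP2, BMP4, ID1, ID2, ID3, ID4, SMAD6 and SMAD7, genes that carry, restrain and answer bone morphogenetic protein (BMP) signals, were examined in DAOY cells, an established human medulloblastoma line. They were chosen by name, and all 10 were found among the 63677 gene identifiers of each table and passed the filter on low values that left 17621 genes for testing. The study grew wild-type cells (WT) and lines edited with CRISPR/Cas9 in NOTCH1 (NOTCH1KO) or NOTCH2 (NOTCH2KO) on plates coated with the Notch ligand Jagged1 or with Fc as the control protein, and added for 12 h either the solvent DMSO or DAPT, an inhibitor of the protease γ-secretase that releases the active Notch fragment. Each of the 12 combinations of 3 genotypes and 4 cultures was sequenced as 1 library of poly-A RNA. Whether an edited line was grown from a single cell was not stated, and each genotype was represented by 1 line, so that the edit and any other property of that line cannot be told apart. Levels are given in TPM, a measure of transcript abundance scaled for gene length and library size.

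BMPs are secreted dimers that bind type I and type II receptor kinases, which phosphorylate SMAD1, SMAD5 and SMAD9. These enter the nucleus with SMAD4 and switch on the ID genes, whose products bind E proteins and so keep basic helix-loop-helix (bHLH) factors off DNA, as well as SMAD6 and SMAD7, inhibitory SMADs that act back on the receptors. Gremlin 1, the product of GREM1, traps BMPs outside the cell, and follistatin, the product of FST, binds activins and, more weakly, BMPs. In the cerebellum BMPs oppose the Sonic hedgehog-driven growth of granule neuron precursors, the cells from which many medulloblastomas arise.

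The libraries held between 18.3 and 22.4 M reads by the ratio of coverage to FPKM, and a single read over 1 kb of transcript equalled 0.0947 to 0.117 TPM. NOTCH1 averaged 0.565 TPM in NOTCH1KO and 3.19 in WT, and NOTCH2 averaged 50.7 in NOTCH2KO and 80.7 in WT. The Notch target HES1 fell under DAPT on Jagged1 plates (30.8 against 68.0 TPM, log2 difference -1.11, adjusted p = 0.0478), a call not made with no filter on low values, where limma called 0 genes in that comparison and 2720 had an unadjusted p under 0.05. The other 4 tested readouts of Notch activity, HES4, HEY1, NRARP and NOTCH3, were not called in that comparison. For Jagged1 against Fc in DMSO 0 of the 5 were called. Of 15 medulloblastoma and neural markers, 12 averaged at least 1 TPM over 12 libraries (11 in WT, 12 in NOTCH1KO and 13 in NOTCH2KO). GLI1 averaged 0.335 TPM in WT, and ATOH1 and NEUROD1 were at or near 0. Levels within this list differed between lines. PTCH1 was at 3.78 to 7.51 TPM in NOTCH1KO and 13.96 to 14.8 TPM in WT. NES was at 4.70 to 8.70 TPM in NOTCH1KO and 0.462 to 1.25 TPM in WT. SFRP1 was at 83.95 to 128 TPM in NOTCH2KO and 34.8 to 55.3 TPM in WT. HHIP, ZIC2 and SOX2 overlapped in all 3 genotypes. The blood markers PTPRC and CD3E and the endothelial marker PECAM1 were at 0 in all libraries. The 7 fibroblast markers summed to between 784.5 and 1466 TPM per library, with overlapping ranges in the 3 genotypes, but most of the sum was COL1A1 and COL1A2. Among its lower members, FAP was at 18.1 to 33.9 TPM in WT, 9.15 to 15.5 TPM in NOTCH1KO and 1.82 to 4.35 TPM in NOTCH2KO. LUM averaged 5.66, 13.7 and 2.06 TPM and PDGFRB 23.7, 29.5 and 5.71 TPM in the same order. PDGFRB ranged from 5.28 to 73.4 TPM in WT and from 4.07 to 7.34 TPM in NOTCH2KO, so that these ranges overlapped. THY1 instead had its highest mean in NOTCH2KO, at 127 to 186 TPM. It was at 86.0 to 133 TPM in WT and 78.6 to 107 TPM in NOTCH1KO. The 5 epithelial markers, EPCAM and CDH1 under 1 TPM among them, summed to 586.4 to 758.5 TPM in NOTCH1KO, below the 759.6 to 1029 TPM of WT, and to 683.8 to 808.4 TPM in NOTCH2KO, with KRT18 as the largest term. The 4 blood markers had a summed level of 16.2 to 25.03 TPM in the NOTCH1KO libraries, against 5.75 to 9.74 TPM in WT and 4.69 to 5.82 TPM in NOTCH2KO, with LCP1 alone at a mean of at least 1 TPM. The part of these markers in the results below was not tested.

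Promoters of 4 of the genes are shown from 250 bases before to 50 bases after the first start listed by RefSeq (GRCh38.p14, printed along the gene's strand). Each of these genes had a difference between genotypes that was called in all 20 alternative analyses described below. SMAD6, not shown, had one called in all 19 that tested it. Capitals mark matches on either strand to TGGGAA, a core bound by the Notch partner CSL, to GGCGCC or CAGAC, bound by SMADs, and to ACGTG, the core of the hypoxia response element. They are FST at chr5:53480379-53480678 on the plus strand, GREM1 at chr15:32717754-32718053 on the plus strand, ID2 at chr2:8681806-8682105 on the plus strand and ID3 at chr1:23559452-23559751 on the minus strand.
FST: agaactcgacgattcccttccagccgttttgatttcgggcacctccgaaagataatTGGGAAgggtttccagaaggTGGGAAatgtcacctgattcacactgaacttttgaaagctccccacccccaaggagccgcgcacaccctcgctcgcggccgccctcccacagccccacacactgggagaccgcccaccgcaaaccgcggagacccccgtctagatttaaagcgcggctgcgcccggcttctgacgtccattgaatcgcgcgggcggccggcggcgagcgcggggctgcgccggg
GREM1: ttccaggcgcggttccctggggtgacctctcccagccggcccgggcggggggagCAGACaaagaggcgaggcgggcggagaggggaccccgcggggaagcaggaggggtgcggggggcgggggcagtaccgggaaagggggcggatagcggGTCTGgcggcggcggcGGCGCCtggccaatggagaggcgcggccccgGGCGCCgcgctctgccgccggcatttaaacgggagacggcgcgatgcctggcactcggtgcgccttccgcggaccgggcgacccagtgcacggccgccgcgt
ID2: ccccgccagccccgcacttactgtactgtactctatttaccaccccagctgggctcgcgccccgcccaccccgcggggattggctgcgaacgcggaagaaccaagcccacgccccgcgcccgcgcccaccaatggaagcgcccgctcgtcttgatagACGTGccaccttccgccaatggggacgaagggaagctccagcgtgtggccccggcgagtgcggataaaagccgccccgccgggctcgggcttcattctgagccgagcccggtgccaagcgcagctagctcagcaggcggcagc
ID3: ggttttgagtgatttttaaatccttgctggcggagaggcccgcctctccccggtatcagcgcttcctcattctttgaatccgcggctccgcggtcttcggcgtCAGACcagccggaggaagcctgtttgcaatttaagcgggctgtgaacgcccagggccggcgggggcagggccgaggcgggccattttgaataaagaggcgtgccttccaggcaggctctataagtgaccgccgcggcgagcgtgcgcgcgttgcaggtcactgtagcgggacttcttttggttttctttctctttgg
The FST promoter held 2 matches to TGGGAA, at -194 and -174 from the start site, and the GREM1 promoter 2 matches to GGCGCC, at -83 and -52, and 2 to CAGAC, at -196 and -99. ID2 had a single match to ACGTG, at -93, and ID3 a single match to CAGAC, at -147. Promoter entries were found for 9 of the 10 genes, all but BMP2. Among all 35116 promoters of this length in the table, TGGGAA was in 24.03%, GGCGCC in 19.2%, CAGAC in 45.3% and ACGTG in 21.4%, so that each of these short words was common. The matches describe letters in these windows and say nothing on whether a factor was bound in DAOY cells.

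The first question was how the level of each gene differed between genotypes across the same 4 cultures. FST, encoding follistatin, was lowest in NOTCH1KO and highest in NOTCH2KO, GREM1 was highest in NOTCH1KO, and ID2 was highest in NOTCH2KO. The values in each library were as follows, with DMSO and then DAPT on Fc plates followed by DMSO and then DAPT on Jagged1 plates.

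**Figure D1:**
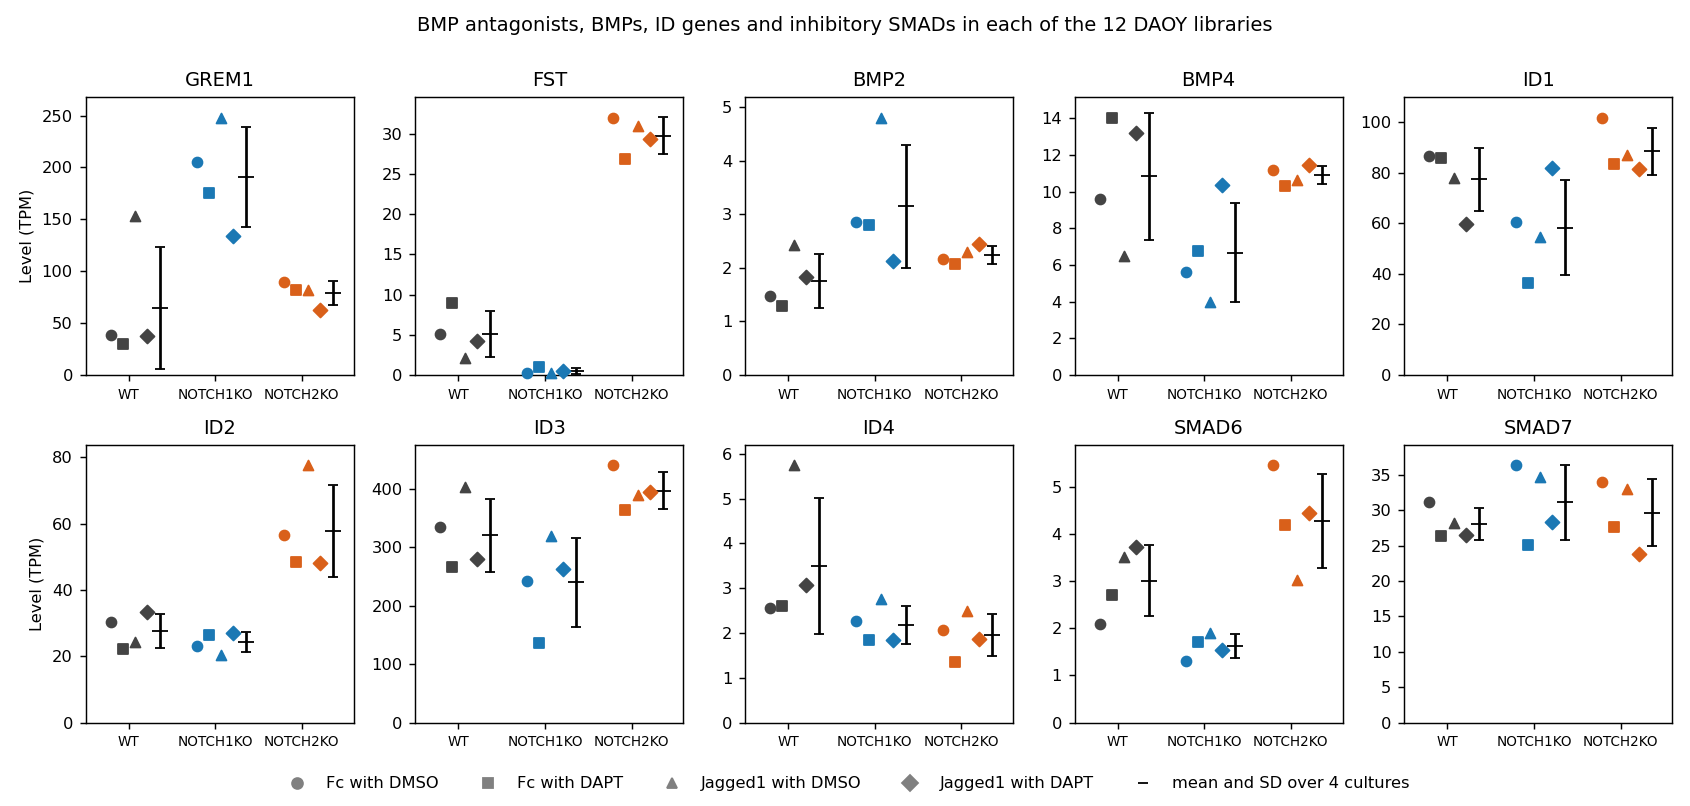
Level in TPM (linear axes from 0) of the 10 genes in each of the 12 libraries, by genotype, with a symbol for each culture and the mean and SD over the 4 cultures of a genotype. FST sits between 26.8 and 32.0 TPM in NOTCH2KO and at 1.04 or less in NOTCH1KO, and the WT library on Jagged1 with DMSO stands above the other WT libraries for GREM1 (153 TPM) and ID4 (5.74 TPM).

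GREM1 (ENSG00000166923; GRCh37 chromosome 15, 33010175 to 33026870, plus strand) stood in WT cells at 38.7, 30.03, 153 and 37.6 TPM. In NOTCH1KO cells its levels were 206, 175, 248 and 134 TPM, and in NOTCH2KO cells 89.5, 81.8, 81.5 and 62.5 TPM. All 4 NOTCH1KO libraries were above all 4 NOTCH2KO libraries, whereas the WT library on Jagged1 with DMSO lay within the NOTCH1KO range, far above its 3 WT counterparts. GREM1 rose in NOTCH1KO against WT (191 ± 48.3 against 64.8 ± 59.0 TPM, SD, n = 4; log2 difference 1.85 ± 0.33, SE; adjusted p = 0.00625; higher in 4 of 4 cultures) and fell in NOTCH2KO against NOTCH1KO (-1.24, adjusted p = 0.0223). NOTCH2KO against WT gave 0.61 (adjusted p = 0.245), and 1.05 (adjusted p = 0.00923) without the WT library on Jagged1 with DMSO. The call between the knockouts was lost without any one of 4 libraries, NOTCH1KO on Fc with DMSO or DAPT and NOTCH2KO on Jagged1 with DMSO or DAPT (adjusted p between 0.0510 and 0.0684), while the rise in NOTCH1KO was called in all 20 alternatives. An antisense gene overlaps GREM1 in the tables (RP11-758N13.1, 0.0965 TPM), and the strand setting of the counting was not given.

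FST (ENSG00000134363; GRCh37 chromosome 5, 52776239 to 52782964, plus strand) stood in WT cells at 5.09, 9.0, 2.08 and 4.22 TPM. In NOTCH1KO cells it was at 0.272, 1.04, 0.259 and 0.458 TPM, levels that rest on few reads, and in NOTCH2KO cells at 32.0, 26.8, 31.0 and 29.3 TPM. The 3 genotypes did not overlap in any library, with means of 0.507 ± 0.365 TPM in NOTCH1KO, 5.10 ± 2.89 in WT and 29.8 ± 2.26 in NOTCH2KO (SD, n = 4). Against WT, FST fell in NOTCH1KO by 1.92 on the log2(TPM + 1) scale (SE 0.26, adjusted p = 0.00169) and rose in NOTCH2KO by 2.46 (adjusted p = 0.000717), each in 4 of 4 cultures. NOTCH2KO was 4.38 above NOTCH1KO (adjusted p = 2.58e-05), a ratio of mean TPM of 58.8. All 3 calls were made in all 20 alternatives, but their size depended on the scale: with a pseudocount of 0.1 the difference of NOTCH1KO from WT was -3.09. The deposited coverage per base of FST, divided by its FPKM and set relative to the library, averaged 0.251 in NOTCH2KO, 0.632 in WT and 0.72 in NOTCH1KO, and with coverage in place of TPM the difference of NOTCH2KO from WT was 1.38 (adjusted p = 0.00181). In RNA from whole cultures, fewer cells with a transcript and less of it per cell cannot be told apart.

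BMP2 and BMP4 encode closely related ligands. BMP2 (ENSG00000125845; GRCh37 chromosome 20, 6748311 to 6760927, plus strand) was a low transcript, at 1.48, 1.29, 2.43 and 1.84 TPM in WT, 2.86, 2.80, 4.80 and 2.13 TPM in NOTCH1KO and 2.16, 2.08, 2.29 and 2.44 TPM in NOTCH2KO. The highest value was that of NOTCH1KO on Jagged1 with DMSO, and the genotype ranges overlapped. BMP2 rose in NOTCH1KO against WT (log2 difference 0.57 ± 0.16, SE; adjusted p = 0.0351; higher in 4 of 4 cultures). BMP4 (ENSG00000125378; GRCh37 chromosome 14, 54416454 to 54425479, minus strand) was at 9.60, 14.0, 6.51 and 13.2 TPM in WT, 5.62, 6.78, 3.96 and 10.4 TPM in NOTCH1KO and 11.2, 10.3, 10.7 and 11.4 TPM in NOTCH2KO. In each culture NOTCH1KO had the lowest BMP4 level, while the NOTCH2KO libraries lay between 10.3 and 11.4 TPM. BMP4 fell in NOTCH1KO against WT (-0.64, adjusted p = 0.0401) and was higher in NOTCH2KO than in NOTCH1KO (0.70, adjusted p = 0.0222), and NOTCH2KO against WT gave 0.06 (adjusted p = 0.859). The calls of both ligands in NOTCH1KO against WT were lost in many alternatives: BMP2 kept its call in 10 of 19 and BMP4 in 9 of 20.

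ID1, ID2, ID3 and ID4 encode the inhibitors of bHLH factors. ID3 (ENSG00000117318; GRCh37 chromosome 1, 23884409 to 23886285, minus strand) was the highest of the 10 genes, with a mean of 319.6 TPM over all libraries. Its levels were 335, 266, 404 and 279 TPM in WT, 243, 137, 320 and 262 TPM in NOTCH1KO and 441, 363.8, 390 and 394 TPM in NOTCH2KO. All NOTCH2KO libraries were above all NOTCH1KO libraries and both overlapped WT. ID3 was higher in NOTCH2KO than in NOTCH1KO (0.78 ± 0.17, SE; adjusted p = 0.00811), a call made in all 20 alternatives, whereas NOTCH1KO against WT gave -0.46 (adjusted p = 0.0764) and NOTCH2KO against WT 0.32 (adjusted p = 0.214).

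ID2 (ENSG00000115738; GRCh37 chromosome 2, 8818975 to 8824583, plus strand) was at 30.3, 22.2, 24.2 and 33.3 TPM in WT, 23.1, 26.4, 20.5 and 27.0 TPM in NOTCH1KO and 56.5, 48.3, 77.6 and 48.2 TPM in NOTCH2KO. Every NOTCH2KO library was above every other library, and the WT and NOTCH1KO ranges overlapped. ID2 rose in NOTCH2KO against WT (57.6 ± 13.9 against 27.5 ± 5.18 TPM, SD, n = 4; log2 difference 1.03 ± 0.19, SE; adjusted p = 0.00776) and was higher than in NOTCH1KO (1.20, adjusted p = 0.0022), both in all 20 alternatives. With coverage in place of TPM the latter was 0.78 (adjusted p = 0.0149). An antisense gene, AC011747.7, overlaps ID2 at 0.291 TPM.

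ID1 (ENSG00000125968; GRCh37 chromosome 20, 30193086 to 30194318, plus strand) was at 86.4, 85.8, 77.95 and 59.6 TPM in WT, 60.5, 36.5, 54.4 and 81.9 TPM in NOTCH1KO and 102, 83.3, 86.9 and 81.6 TPM in NOTCH2KO. NOTCH1KO was lower than both other genotypes in 3 of 4 cultures, with the order turned on Jagged1 with DAPT. No comparison of ID1 between genotypes passed the test, with NOTCH2KO against NOTCH1KO at 0.64 (adjusted p = 0.0523). Without the NOTCH1KO library on Jagged1 with DAPT that difference was 0.90 (adjusted p = 0.00511) and NOTCH1KO against WT was -0.70 (adjusted p = 0.0182). The difference between the knockouts was also called without WT on Fc with DAPT or WT on Jagged1 with DAPT, with the highest adjusted p of the 3 at 0.0414, and with coverage, library weights or the genotype term alone (adjusted p = 0.0478, 0.0430 and 0.0344).

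ID4 (ENSG00000172201; GRCh37 chromosome 6, 19837617 to 19840915, plus strand) was at 2.57, 2.59, 5.74 and 3.06 TPM in WT, 2.26, 1.84, 2.75 and 1.85 TPM in NOTCH1KO and 2.06, 1.36, 2.49 and 1.87 TPM in NOTCH2KO. The WT library on Jagged1 with DMSO was the highest, and all NOTCH2KO libraries were below all WT libraries. ID4 fell in NOTCH2KO against WT (-0.57 ± 0.14, SE; adjusted p = 0.0261), and NOTCH1KO against WT gave -0.46 (adjusted p = 0.0503), which was called with FPKM (-0.38, adjusted p = 0.0367), with coverage (-0.53, adjusted p = 0.0281) and without WT on Fc with DMSO (-0.57, adjusted p = 0.0397). Thus ID4 was called in the opposite direction to ID2 in the same comparison. The ID4 call was made in 11 of 19 alternatives.

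SMAD6 (ENSG00000137834; GRCh37 chromosome 15, 66994566 to 67074338, plus strand), which encodes the inhibitory SMAD that acts mainly on BMP receptors, was at 2.10, 2.71, 3.50 and 3.73 TPM in WT, 1.31, 1.72, 1.90 and 1.54 TPM in NOTCH1KO and 5.45, 4.19, 3.03 and 4.45 TPM in NOTCH2KO. The NOTCH1KO libraries lay below all others, and WT and NOTCH2KO overlapped. SMAD6 was higher in NOTCH2KO than in NOTCH1KO (1.00 ± 0.19, SE; adjusted p = 0.00547), while NOTCH1KO against WT (-0.60, adjusted p = 0.0539) and NOTCH2KO against WT (0.40, adjusted p = 0.191) missed the threshold. The call was made in all 19 alternatives that tested SMAD6, and the difference was 0.59 (adjusted p = 0.00289) with coverage in place of TPM. NOTCH1KO against WT was called without WT on Fc with DMSO, NOTCH2KO on Fc with DMSO or NOTCH2KO on Jagged1 with DMSO (adjusted p between 0.0312 and 0.0462), and also with a pseudocount of 0.1 (-0.83, adjusted p = 0.0440) or the genotype term alone (adjusted p = 0.0285).

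SMAD7 (ENSG00000101665; GRCh37 chromosome 18, 46446223 to 46477081, minus strand), whose product restrains both BMP and TGF-β receptors, was the steadiest of the 10 genes between genotypes. It was at 31.2, 26.4, 28.2 and 26.5 TPM in WT, 36.4, 25.03, 34.7 and 28.4 TPM in NOTCH1KO and 34.0, 27.7, 32.9 and 23.9 TPM in NOTCH2KO. The genotype ranges overlapped, and the 3 differences lay between -0.07 and 0.13 (adjusted p between 0.333 and 0.662).

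Counted together, 2 of the 10 genes rose and 2 fell in NOTCH1KO against WT, where 10.7% of all 17621 tested genes rose and 12.8% fell. In NOTCH2KO against WT 2 rose and 1 fell, against 12% and 7.35% of all genes. Between the knockouts 5 were higher and 1 was lower in NOTCH2KO, against 19.8% and 11.9% of all genes. The median differences of the 10 genes were -0.45, 0.29 and 0.67, with medians over all tested genes of 0.00, 0.06 and 0.07. These 3 comparisons share libraries, so their values are set side by side and are not independent of each other. Centering each library on its median moved the share of calls that were higher from 45.5% to 56.1%, from 61.9% to 42.9% and from 62.5% to 40.0% in the same order, and the median difference between the knockouts from 0.07 to -0.08.

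**Figure D2:**
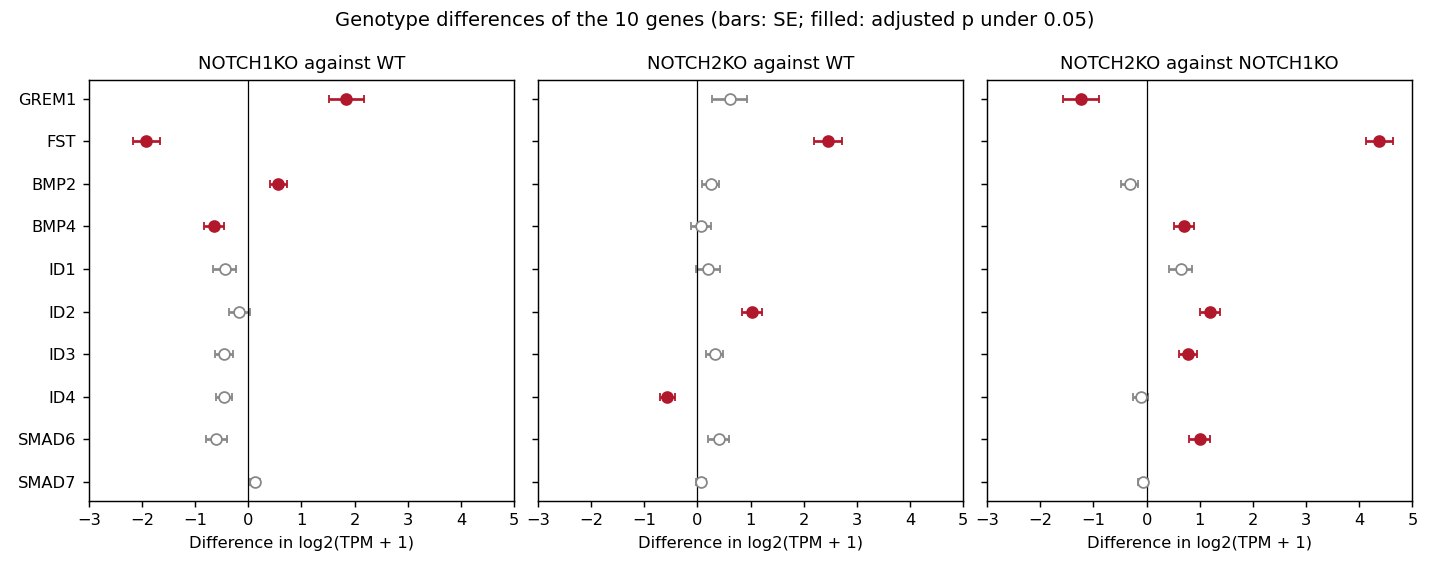
Difference in log2(TPM + 1) of each of the 10 genes for the 3 genotype comparisons, with bars for the SE of the additive limma model on 12 libraries and filled points for an adjusted p under 0.05 over all tested genes. FST is filled in all 3 panels, at -1.92, 2.46 and 4.38, and SMAD7 lies near 0 in each.

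By mean level, 6 of the 10 genes (FST, BMP4, ID1, ID2, ID3 and SMAD6) had the order NOTCH1KO, WT, NOTCH2KO from lowest to highest, as did 23.2% of all tested genes. Neighbors in that order were not always apart: for BMP4 the means of WT and NOTCH2KO were 10.8 ± 3.46 and 10.9 ± 0.503 TPM, and for ID2 those of NOTCH1KO and WT were 24.2 ± 3.03 and 27.5 ± 5.18 TPM (SD, n = 4). GREM1 and BMP2 had the highest mean in NOTCH1KO, and ID4 the highest in WT. This order was not tested, because the genes had been chosen with earlier results of these data known.

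The second question was whether ligand or DAPT moved these genes within 12 h. With 3 genotypes as the libraries of each culture, limma called 0 of the 10 genes in all 4 culture comparisons, where few genes were called at all: 0.0114% of tested genes for Jagged1 against Fc in DMSO, 0.0284% for DAPT on Jagged1, 0.0341% for DAPT on Fc and 0.00568% for Jagged1 against Fc in DAPT. Without the NOTCH2KO library on Jagged1 with DMSO Jagged1 against Fc in DMSO went from 2 to 42 genes and DAPT on Jagged1 from 5 to 118, and with library weights DAPT on Jagged1 went from 5 to 110 and DAPT on Fc from 6 to 34, with 0 of the 10 genes called in each case. At an unadjusted p under 0.05 the counts were 1, 4, 2 and 0 of the 10 genes, against 1901, 1939, 1082 and 836 of all genes.

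GREM1 was lower with DAPT on Jagged1 in each of the 3 genotypes, at ratios of 0.245 in WT, 0.539 in NOTCH1KO and 0.767 in NOTCH2KO, and its difference over genotypes was -1.09 (unadjusted p = 0.021, adjusted p = 0.356). BMP4 was higher with DAPT on Jagged1 in each genotype, at ratios of 2.03, 2.61 and 1.07, with a difference of 0.73 (unadjusted p = 0.00858, adjusted p = 0.288). ID4 was higher on Jagged1 than on Fc in DMSO (0.44, unadjusted p = 0.0283, adjusted p = 0.428) and lower with DAPT on Jagged1 (-0.47, unadjusted p = 0.0202, adjusted p = 0.354), in 3 of 3 genotypes each. These differences share the libraries on Jagged1 with DMSO, where ID4 in WT was at 5.74 TPM, and are not independent of each other. In these comparisons the 3 genes thus had the same sign of difference in every line, and none passed the test over all genes. How often all tested genes share a sign over the 3 genotypes, or have cultures that do not overlap, was not counted. Such agreement, here and below, is therefore not read as a response. Elsewhere signs could differ. GREM1 on Jagged1 against Fc in DMSO was at 1.96 in WT, 0.27 in NOTCH1KO and -0.13 in NOTCH2KO. SMAD7 was lower with DAPT in 3 of 3 genotypes on either plate, with a difference of -0.35 on Fc (unadjusted p = 0.0107, adjusted p = 0.68), where the DMSO libraries at 31.2, 36.4 and 34.0 TPM did not overlap the DAPT libraries at 26.4, 25.03 and 27.7 TPM, and of -0.27 on Jagged1 (unadjusted p = 0.033, adjusted p = 0.398). ID3 was lower with DAPT on Fc in 3 of 3 genotypes (-0.48, unadjusted p = 0.0347, adjusted p = 0.775). ID1 was lower on Jagged1 than on Fc in DMSO (-0.17, adjusted p = 0.814) and lower with DAPT on Fc (-0.34, adjusted p = 0.886) in 3 of 3 genotypes each. On Jagged1 against Fc in DMSO, BMP2 was higher in 3 of 3 genotypes (0.37, adjusted p = 0.4975). FST (-0.35), BMP4 (-0.33) and SMAD7 (-0.085) were lower there in 3 of 3, and none was called. GREM1 and BMP2 were lower with DAPT on Fc, and ID3 and ID4 higher on Jagged1 in DAPT, in 3 of 3 genotypes each. ID2 had no common direction over the genotypes in any of the 4 comparisons.

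**Figure D3:**
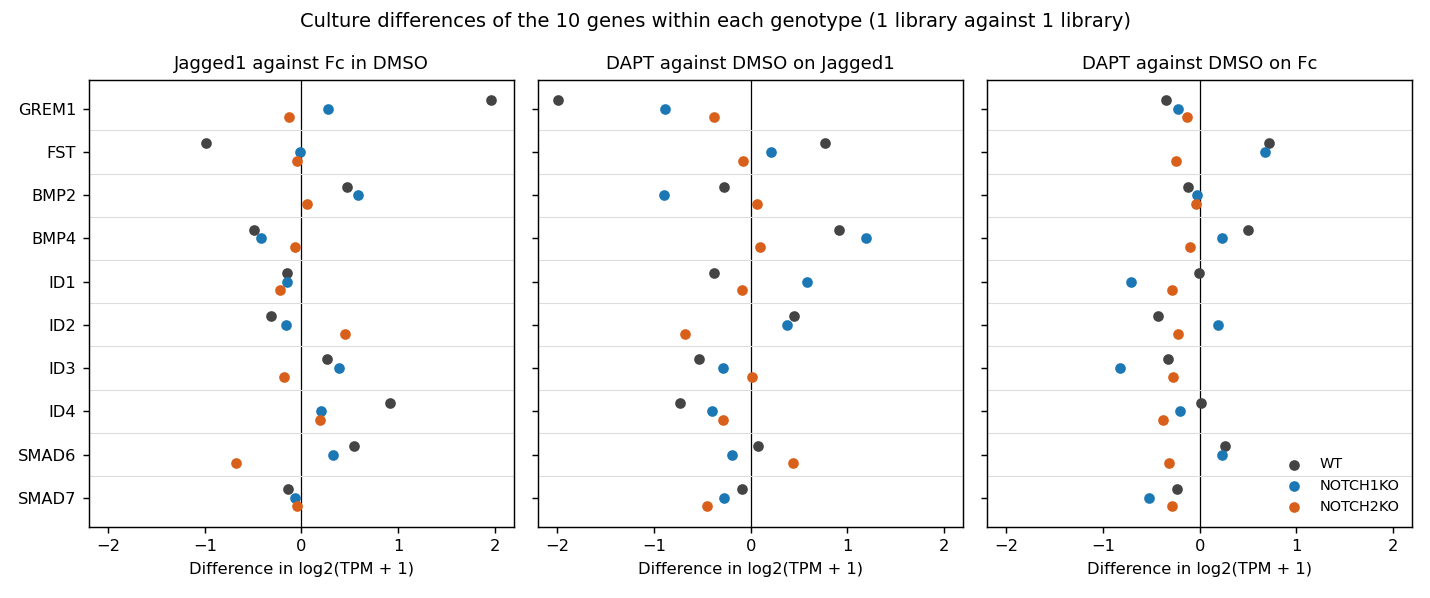
Difference in log2(TPM + 1) between 2 cultures within each genotype, 1 library against 1 library and therefore without error bars, for Jagged1 against Fc in DMSO, DAPT against DMSO on Jagged1 and DAPT against DMSO on Fc. GREM1 in WT stands farthest from 0, at 1.957 and -1.998 in the first and second panels.

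Whether genotypes differed in these responses was asked with interaction terms, which left 4 residual degrees of freedom. GREM1 on Jagged1 was at 3.96 times its Fc level in WT, 1.21 times in NOTCH1KO and 0.911 times in NOTCH2KO, all in DMSO. With DAPT the ratio in WT was 1.25. Averaged over both drugs, the log2 Jagged1 response of NOTCH1KO minus that of WT was -1.19 (unadjusted p = 0.0463, adjusted p = 0.423), and that of NOTCH2KO minus that of WT was -1.39 (unadjusted p = 0.0263, adjusted p = 1.0). The large ratio was thus seen in 1 library pair, WT in DMSO, and no difference in response passed the test over all genes. For BMP4 the DAPT response of NOTCH2KO over both plates minus that of WT was -0.72 (unadjusted p = 0.0416, adjusted p = 1.0), and minus that of NOTCH1KO it was also -0.72 (unadjusted p = 0.041, adjusted p = 0.999). Limma called 0 of the 10 genes in the 6 contrasts, and at an unadjusted p under 0.05 it found 1 in each of 5 contrasts and 0 for the DAPT response of NOTCH1KO minus WT. Among all genes 0.0341%, 0.0397% and 0.0454% were called for the Jagged1 response (NOTCH1KO minus WT, NOTCH2KO minus WT and NOTCH2KO minus NOTCH1KO) and 0.0114%, 0% and 0.0227% for the DAPT response. At an unadjusted p under 0.05 in the same order, the shares of all genes were 11.7%, 3.87% and 8.56% for the Jagged1 response. For the DAPT response they were 3.36%, 3.36% and 4.10%.

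Further genes of the pathway were read from 7 lists by role, which held 80 genes, 54 of them with enough signal to test. In NOTCH1KO against WT 10 rose and 7 fell, in NOTCH2KO against WT 17 rose and 5 fell, and between the knockouts 14 were higher and 6 lower in NOTCH2KO, to be read against the shares of all genes given above. In the 4 culture comparisons 0 of the 54 were called by limma.

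Other extracellular antagonists that passed the test against WT were all higher in the knockout lines. Of 8 tested, 4 rose in NOTCH1KO and 5 in NOTCH2KO against WT, and 0 fell. SOST was under 1 TPM in WT and entered the test through the knockout lines, where it was high, so that a fall could hardly have been seen. Of the other 7 antagonists, 3 rose in NOTCH1KO and 4 in NOTCH2KO, where 10.7% and 12% of all genes rose. Their medians were 0.40 and 0.51, against 0.00 and 0.06 over all genes. Among these calls, TWSG1 in NOTCH2KO was kept in 10 of 20 alternatives and CRIM1 in NOTCH1KO in 15 of 20. SOST, which encodes sclerostin, a secreted protein of the gremlin fold, went from 0.368 ± 0.268 TPM in WT to 3.83 ± 1.52 in NOTCH1KO and 2.57 ± 0.848 in NOTCH2KO (SD, n = 4; log2 differences 1.78 and 1.38, adjusted p = 0.000173 and 0.00076). FSTL1, a secreted glycoprotein gene related to FST, rose in both (mean of 271.5 TPM in WT; 0.40 and 0.65, adjusted p = 0.00992 and 0.00152). The BMP-binding membrane protein gene CRIM1 rose in NOTCH2KO (121 against 70.2 TPM, 0.78, adjusted p = 0.00215). FSTL3, which like follistatin binds activins, was called in both (0.90 and 1.07, adjusted p = 0.01 and 0.00581), but not with coverage (adjusted p = 0.348 and 0.133). NOG and CHRD, the genes of noggin and chordin, had a mean under 1 TPM and were not tested. The direction of the called antagonists differed from that of FST in NOTCH1KO, which fell.

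Among ligands, 4 genes of the list were tested. In NOTCH1KO 1 rose and 0 fell, where 10.7% of all genes rose and 12.8% fell. In NOTCH2KO 2 rose and 1 fell, against 12% and 7.35% of all genes. BMP7 rose in NOTCH1KO and in NOTCH2KO (13.9 ± 1.45 and 12.9 ± 1.73 against 7.998 ± 0.335 TPM; 0.72 and 0.62, adjusted p = 0.00321 and 0.00753). BMP6 rose in NOTCH2KO (3.43 ± 0.498 against 1.37 ± 0.662 TPM; 0.94, adjusted p = 0.0378), a call kept in 9 of 19 alternatives. GDF5, another BMP family ligand gene, fell in NOTCH2KO (0.939 ± 0.395 against 3.72 ± 1.63 TPM; -1.24, adjusted p = 0.000925). In the list of activins and related genes 3 were tested, and in either line 1 rose and 0 fell against WT. Of the activin subunits that follistatin binds, INHBA rose in NOTCH1KO (571 ± 232 against 296 ± 148 TPM; 0.99, adjusted p = 0.00396), though not with a genotype term alone (adjusted p = 0.0966). INHBB rose in NOTCH2KO (5.63 ± 0.293 against 1.33 ± 0.843 TPM; 1.57, adjusted p = 0.0016). Each subunit was called in the line in which the other was not.

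Receptors and co-receptors were called in 7 cases against WT. ENG, the gene of the co-receptor endoglin, fell in NOTCH1KO (15.2 ± 3.07 against 51.5 ± 2.36 TPM; -1.72, adjusted p = 9.33e-05), and RGMB, a BMP co-receptor gene, rose in NOTCH2KO (46.9 ± 11.3 against 18.4 ± 2.59 TPM; 1.28, adjusted p = 0.000246). Of 12 tested, 3 fell in NOTCH1KO and 0 rose, against 12.8% and 10.7% of all genes. In NOTCH2KO 3 rose and 1 fell, against 12% and 7.35% of all genes. The calls of ENG and RGMB against WT were made in all 20 alternatives. In NOTCH1KO, ACVRL1 kept its fall in 15 of 19 and TGFBR3 in 13 of 20. In NOTCH2KO, BMPR1A kept its rise in 13 of 20, BMPR2 its rise in 15 of 20 and BMPR1B its fall in 12 of 19. Of 12 other SMADs and regulators tested, 3 rose and 2 fell in NOTCH1KO, and 3 rose and 1 fell in NOTCH2KO, against the same shares of all genes. The signal transducer gene SMAD9 rose in NOTCH2KO (2.29 ± 0.288 against 0.690 ± 0.281 TPM, so that it too entered the test through the knockout lines; 0.97, adjusted p = 0.00179). It also rose in NOTCH1KO (0.42, adjusted p = 0.0423), a call kept in 7 of 19 alternatives. TGIF1 fell in both lines (-0.98 and -1.03, adjusted p = 0.0329 and 0.0323), calls kept in 13 and 12 of 20. SMAD1 rose in NOTCH1KO (0.44, adjusted p = 0.025), kept in 13 of 20. SMURF2 and SMURF1, genes of ubiquitin ligases that mark SMADs and their receptors for degradation, were higher in NOTCH2KO than in NOTCH1KO (1.35, adjusted p = 0.00171, and 0.80, adjusted p = 0.00223). SMAD3, which transduces TGF-β and activin rather than BMP signals, was lower in NOTCH2KO than in NOTCH1KO (95.1 ± 10.9 against 147 ± 24.1 TPM; -0.61, adjusted p = 0.00657).

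BMP target genes beyond the ID genes were called in both directions. Of 10 tested, 1 rose and 2 fell in NOTCH1KO, where 10.7% of all genes rose and 12.8% fell. In NOTCH2KO 2 rose and 2 fell, against 12% and 7.35% of all genes. GATA2, a transcription factor gene, rose in NOTCH2KO (22.0 ± 2.15 against 10.2 ± 1.88 TPM; 1.05, adjusted p = 0.00432), as did the bHLH gene ATOH8 (0.76, adjusted p = 0.012). UNC5B, a netrin receptor gene, fell there (5.12 ± 1.27 against 14.4 ± 8.77 TPM; -1.21, adjusted p = 0.00982), a call lost with the genotype term alone (adjusted p = 0.0930). TBX3, a T-box factor gene, rose in NOTCH1KO (0.63, adjusted p = 0.00969), and the homeobox gene MSX1 fell there (-0.89, adjusted p = 0.0173), a call lost without WT on Fc with DAPT (-0.73, adjusted p = 0.0562). The homeobox gene DLX2 also fell in NOTCH1KO (5.86 ± 1.37 against 9.66 ± 2.37 TPM; -0.63, adjusted p = 0.0139), again not without that library (-0.58, adjusted p = 0.0505). Of 5 tested bHLH partners of the ID proteins, the E protein gene TCF12 rose in NOTCH2KO (56.7 ± 5.73 against 32.5 ± 3.75 TPM; 0.78, adjusted p = 0.0097), but lost its call with coverage (0.41, adjusted p = 0.156). TCF4 was at 25.7 against 9.75 TPM (1.31, adjusted p = 0.0636) and TCF3 at 82.2 against 101 TPM (-0.28, adjusted p = 0.372).

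**Figure D4:**
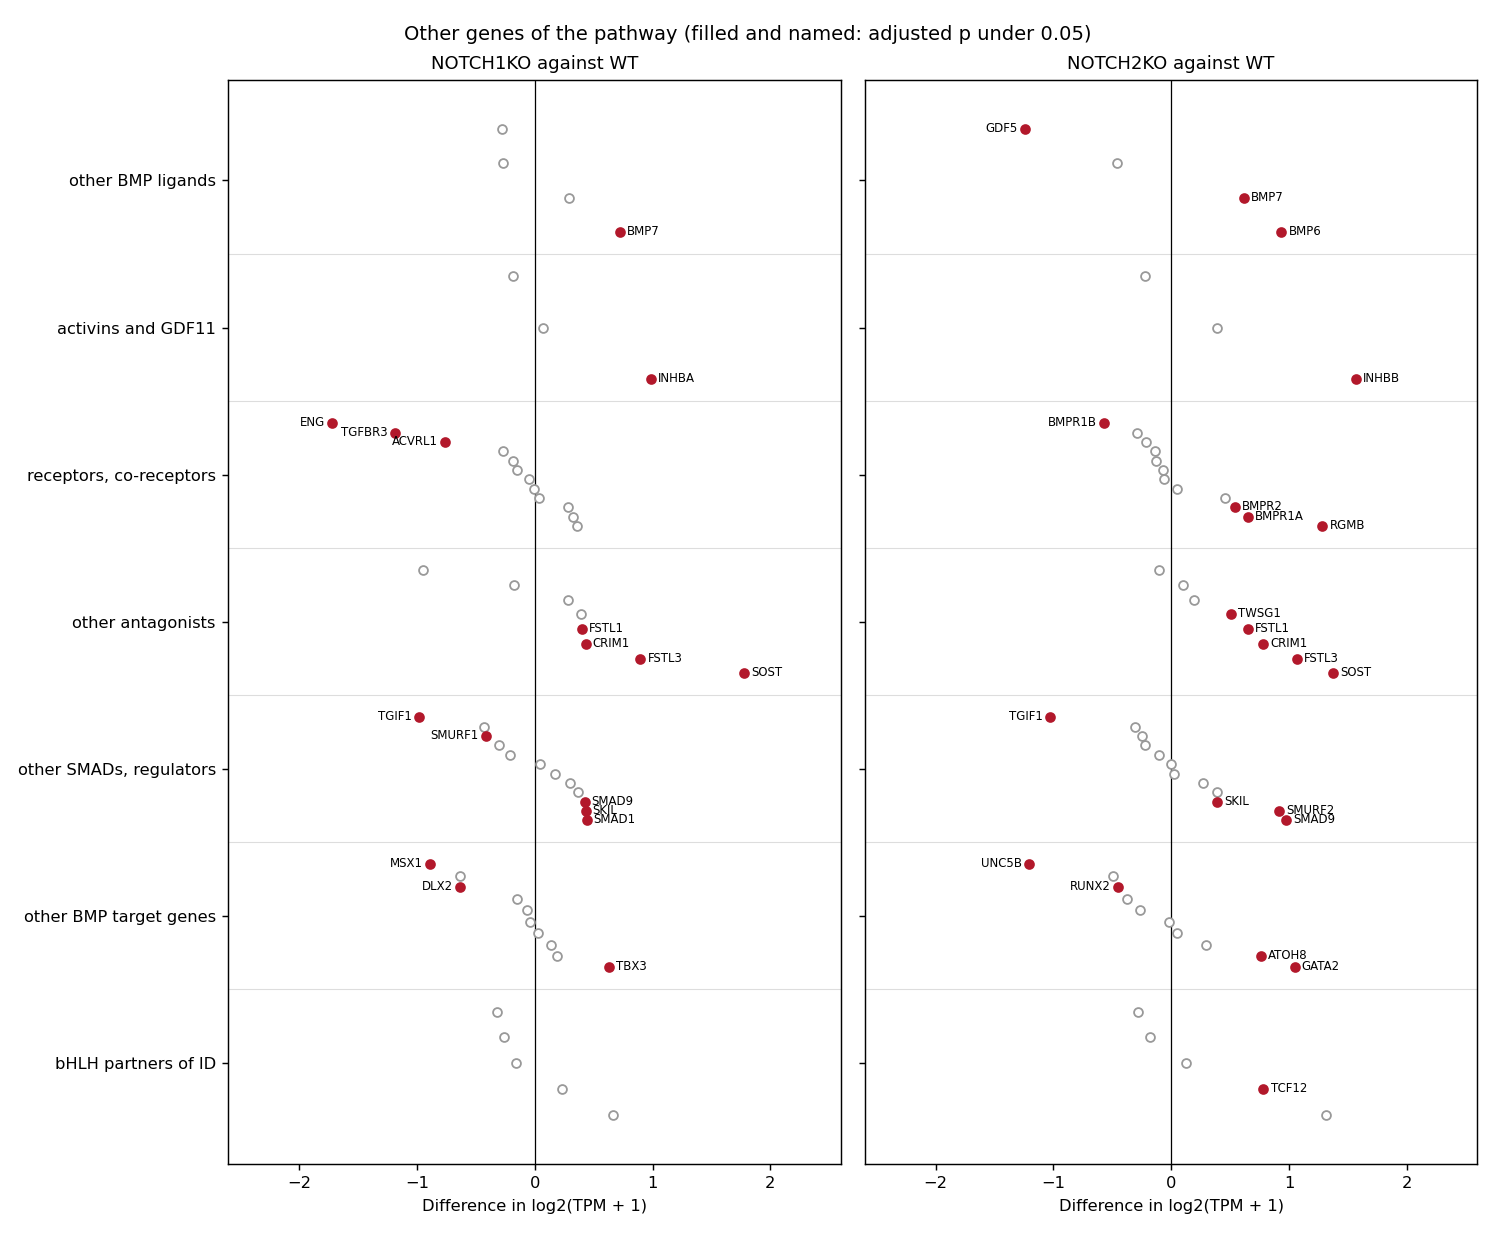
Difference in log2(TPM + 1) from WT of the 54 tested pathway genes, by list, for NOTCH1KO and NOTCH2KO, with called genes filled and named. Both comparisons use the same 4 WT libraries. The antagonist row has called points to the right of 0 alone. Among them SOST, at 1.78 and 1.38, was under 1 TPM in WT and entered the test through the knockout lines.

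The genes whose levels ran most like those of GREM1, FST, ID1 and ID3 over the 12 libraries were sought among 10404 protein-coding genes with a mean of at least 5 TPM, by Pearson's r of log2(TPM + 1). For GREM1 they were FLT1 (r = 0.972), WDR37, PACRGL, UBL3 and FAM117B (r = 0.937), and for FST they were CRMP1 (r = 0.986), LARGE, NTNG1, STEAP1B and MAP1A (r = 0.972). For ID1 they were GAS2L1 (r = 0.967), H1FX, CYB5R3, BAIAP2L2 and MED15 (r = 0.951), and for ID3 they were ZNF703 (r = 0.95), C12orf57, EFNB1, LIMD2 and SNAI1 (r = 0.927). The points fall into 3 lines and share their libraries, so these values describe likeness alone.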

How the data were processed

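Poly-A RNA of DAOY cultures was made into TruSeq stranded libraries and sequenced as single reads of 51 bases. The submitters' processing notes name bcl2fastq 2.17, CASAVA and the genome build GRCh37. No aligner, quantifier or strand setting was given in the sources used here. The authors had scaled TPM by the length of each gene and by library. The deposited FPKM values were a fixed multiple of TPM within a library. The deposited coverage values, the mean read depth per base, had not been scaled between libraries and were scaled here to a common sum where used. No counts were given, so the ratio of coverage to FPKM served to derive depth. Identifiers listed several times were summed.

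Differences were computed on log2(TPM + 1), which understates changes of low genes, by limma 3.58.1 (R 4.3.3, mean-variance trend) over genes averaging at least 1 TPM. The additive model of genotype and culture had 6 residual degrees of freedom and gave 7 comparisons, and 2 interaction models with 4 gave 6 contrasts. Each combination had 1 library, so p-values reflect how far these libraries depart from additivity, which may be technical, rather than variation between independent cultures. P-values were adjusted by Benjamini and Hochberg over all tested genes, and genes with an adjusted p under 0.05 were said to have risen or fallen. Scripts were tested on simulated data.

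Named genes were the 10 genes, the Notch genes used as checks, and up to 4 called genes of each list and comparison with the largest differences. Of the latter, a selection made after their values were seen is given, as are TCF3 and TCF4, and the plot of pathway genes names all those called against WT. One marker gene is not reported here and was left out of its list. The genes and lists were chosen with earlier results of these data known. The alternatives were a pseudocount of 0.1, no filter, a mean of at least 5 TPM, FPKM, coverage, median-centered libraries, library weights, the genotype or culture term alone, and each library left out in turn. Promoters came from RefSeq on GRCh38.p14, and gene positions from the deposited tables on GRCh37. Python 3.11.15 with pandas 2.3.3 was used for summaries.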

Additional observations from a re-analysis of the deposited data

Results flagged for a closer look

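GREM1 in WT cells on Jagged1 with DMSO stood at 153 TPM, with the other WT libraries between 30.03 and 38.7 TPM. Its gap to the nearest library was 0.847 of the range of the group, above Dixon's critical value for a group of 4. Of the 30 groups examined (10 genes in 3 genotypes) it was the 1 set apart by this measure, and chance sets apart about 1 in 20 groups. The 4 libraries of a genotype differ in culture, so an effect of that culture and a property of that library cannot be told apart.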

How the results depend on the processing

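The number of the 10 genes called in NOTCH1KO against WT was 4, and 2 with no filter on low values. With each library left out in turn it ranged from 2 to 5, with 2 without WT on Fc with DAPT or any of NOTCH1KO on Fc with DMSO, Fc with DAPT and Jagged1 with DMSO. It ranged from 2 to 3 for NOTCH2KO against WT (3 in the main analysis) and from 4 to 7 between the knockouts (6 in the main analysis). The counts for cultures were 0 in every alternative run. BMP2 in NOTCH1KO lost its call without any of 8 libraries (WT on Fc with DMSO, Fc with DAPT and Jagged1 with DMSO, NOTCH1KO in the same 3 cultures, NOTCH2KO on Fc with DMSO or DAPT), with adjusted p between 0.0521 and 0.106. BMP4 in NOTCH1KO lost it without any of 7 (WT except on Jagged1 with DMSO, NOTCH1KO except on Jagged1 with DAPT, NOTCH2KO on Fc with DMSO), with adjusted p between 0.0584 and 0.125, and between the knockouts without any of 5 (NOTCH1KO except on Jagged1 with DAPT, NOTCH2KO on either plate with DMSO), with adjusted p between 0.0563 and 0.0727. ID4 in NOTCH2KO lost it without any of 6 (WT and NOTCH2KO in all cultures but Fc with DMSO), with adjusted p between 0.0592 and 0.0824. ID3 in NOTCH2KO against WT was called with library weights (0.38, adjusted p = 0.0391). Signs turned for small differences that were not called. With coverage, SMAD7 was at -0.048 and ID2 at 0.063 in NOTCH1KO against WT, BMP4 at -0.006 in NOTCH2KO against WT and SMAD7 at 0.084 between the knockouts. With median-centered libraries, SMAD7 was at -0.032 and BMP4 at -0.038 in NOTCH2KO against WT, and with libraries left out BMP4 ranged there from -0.12 (without NOTCH2KO on Jagged1 with DMSO) to 0.20, with -0.04 without WT on Jagged1 with DMSO. The cause was not tested. A mean of at least 5 TPM left out BMP2, ID4 and SMAD6. Genotypes were compared within the shared cultures by the culture term, which acts as the block, and the genotype term alone is the fit without it. The labels give no replicate numbers. Over all genes, calls in NOTCH1KO against WT went from 4137 to 2642 and 2637 without WT on Fc with DMSO or DAPT, and in NOTCH2KO against WT from 3405 to between 2025 and 2265 without any of WT or NOTCH2KO in the cultures other than Fc with DAPT. With 1 library for each combination and no counts, the precision of low genes such as FST in NOTCH1KO is limited.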

Other observations

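Tested genes within 5 Mb of each of the 10 genes gave a local level for the genotype differences. Near SMAD6, 80 genes had a median difference of -0.30 between NOTCH2KO and NOTCH1KO, whereas SMAD6 was at 1.00. Near ID2, 40 genes had a median of 0.34 in the same comparison, with ID2 at 1.20. Near ID4, 35 genes had a median of -0.21 in NOTCH2KO against WT, with ID4 at -0.57, and near BMP4 89 genes had a median of -0.16 in NOTCH1KO against WT, with BMP4 at -0.64. Near FST and GREM1 the medians lay between 0.03 and 0.17 in all 3 comparisons. The part of the surrounding region in these differences was not tested. No local level was computed for the other pathway genes, such as ENG.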
